A study of Mus musculus with 9 samples.

Results

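Levels of 10 mouse genes of the TGF-beta, BMP and activin pathways, Tgfb1, Tgfb2, Bmp4, Inha, Inhba, Tgfbr2, Smad7, Id1, Id2 and Id3, were followed in colon organoids, which are cultured epithelial structures derived from colon tissue. The genes were chosen by name, with earlier results of these data known. Probes were assigned to them through the RefSeq accession that the array gives each probe. All 10 were among the 20660 genes named on the array, and all 10 were among the 14034 genes tested. They had 13 probes, of which 12 passed the filter on dim probes. RNA of 9 samples was hybridised to Agilent single-colour arrays: 3 of untreated organoids at 0 weeks, 3 of organoids treated for 12 weeks and 3 of organoids treated for 60 weeks. The labels call the treatment inflammatory reagents without naming them, and give no strain, genotype or age. They do not say whether replicates are separate cultures or animals, so p-values measure only the spread between these samples, which may be technical. No untreated culture at 12 or 60 weeks was analysed here, so treatment and time in culture cannot be told apart.

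Ligands of this family are secreted dimers that assemble pairs of receptor kinases, which phosphorylate Smad proteins. TGF-beta and activin act mainly through Smad2 and Smad3, and BMPs through Smad1 and Smad5. The receptor-activated Smads join Smad4 and enter the nucleus, where the Id genes are typical BMP targets and Smad7 is induced as a feedback inhibitor. In the colon, BMP signalling is strongest away from the crypt base and goes with differentiation, while TGF-beta restrains the growth of epithelial cells.

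The promoters of Id2, Id3 and Bmp4 are shown as examples of genes that were lower at 60 weeks than at 0 weeks. At 12 weeks Id3 rose and the other 2 fell. Smad7 and Id1 were also lower at 60 weeks, and their promoters are not shown. Each window runs from 250 bases before to 50 bases after the annotated start, 5′ to 3′ in the direction of the gene, from RefSeq on GRCm38.p6. Capitals mark matches, on either strand, to GGCGCC, a sequence bound by BMP-activated Smads, to CAGAC, which holds the Smad box of Smad3 and Smad4, or to TATAAA, the TATA box. These motifs do not overlap in the windows shown.
Id2, chr12:25096043-25096342, minus strand: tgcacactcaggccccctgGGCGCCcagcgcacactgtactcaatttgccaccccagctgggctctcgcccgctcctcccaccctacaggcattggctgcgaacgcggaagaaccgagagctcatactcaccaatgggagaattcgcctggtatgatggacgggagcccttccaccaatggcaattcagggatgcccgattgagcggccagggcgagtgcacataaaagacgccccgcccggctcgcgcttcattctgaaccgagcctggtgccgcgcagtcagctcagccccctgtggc
Id3, chr4:136143572-136143871, plus strand: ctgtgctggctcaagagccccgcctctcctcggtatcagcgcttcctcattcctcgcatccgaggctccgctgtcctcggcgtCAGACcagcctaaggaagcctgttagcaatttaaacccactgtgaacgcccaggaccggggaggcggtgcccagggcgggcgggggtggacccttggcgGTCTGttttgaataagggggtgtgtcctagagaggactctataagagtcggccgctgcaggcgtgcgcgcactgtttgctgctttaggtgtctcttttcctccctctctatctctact
Bmp4, chr14:46390620-46390919, minus strand: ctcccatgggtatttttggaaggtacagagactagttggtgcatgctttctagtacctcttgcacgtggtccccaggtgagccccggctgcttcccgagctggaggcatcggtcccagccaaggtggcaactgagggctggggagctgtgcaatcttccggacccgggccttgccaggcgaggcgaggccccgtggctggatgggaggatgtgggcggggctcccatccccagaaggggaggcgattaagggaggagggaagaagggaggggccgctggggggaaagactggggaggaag
The Id2 window held 1 GGCGCC at position -231 from the start, a sequence found in 11.9% of 32851 promoter windows of the same length. The Id3 window held CAGAC at -167 and, on the opposite strand, at -68, and 49.6% of the windows held CAGAC at least once. None of the 3 motifs matched in the Bmp4 window. TATAAA, which 13.6% of the windows held, occurred in none of the 3 windows shown.

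The 10 genes were chosen with earlier results of these data known, so the counts below describe them and are no test of the set. At 12 weeks against 0 weeks, 6 of 10 passed limma's test at an adjusted p under 0.05, beside 41.8% of all tested genes: Id3 and Inha rose, and Tgfb2, Bmp4, Smad7 and Id2 fell. At 60 weeks against 0 weeks, 6 of 10 passed, beside 32.8% of all tested genes: Inhba rose, and Bmp4, Smad7, Id1, Id2 and Id3 fell. At 60 weeks against 12 weeks, 6 of 10 passed, beside 38.3% of all tested genes: Tgfb2 and Inhba rose, and Bmp4, Inha, Id1 and Id3 fell. By direction, 2 of 10 rose and 4 fell at 12 against 0 weeks, where 19.1% of all tested genes rose and 22.7% fell. At 60 against 0 weeks 1 of 10 rose and 5 fell, where 16.7% of all tested genes rose and 16.1% fell, and at 60 against 12 weeks 2 rose and 4 fell, where 20.7% rose and 17.6% fell. In these comparisons, in the same order, the groups did not overlap for 6, 7 and 7 of the 10 genes, beside 54.6%, 56.5% and 47.3% of all tested genes. Limma's moderated F test over the 3 groups called 8 of 10, all but Tgfb1 and Tgfbr2, beside 56.7% of all tested genes. The counts at 12 against 0 weeks, at 60 against 12 weeks and by the F test include Inha. It passed the filter on dim probes only through its 12 weeks arrays, so its difference was a condition of being tested. The median log2 change of the 10 genes was -0.28, -0.90 and -0.27 in these 3 comparisons, in the order given, and the median over all tested genes was -0.06, -0.04 and 0.02. Without replicate 2 of 12 weeks, which stood apart from its group, 8, 6 and 10 of the 10 genes passed, beside 7405, 6022 and 7072 of all tested genes. Both comparisons against 0 weeks share the same 3 untreated arrays. These are bulk samples, in which fewer cells of a type and less RNA per cell cannot be told apart.

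**Figure D1:**
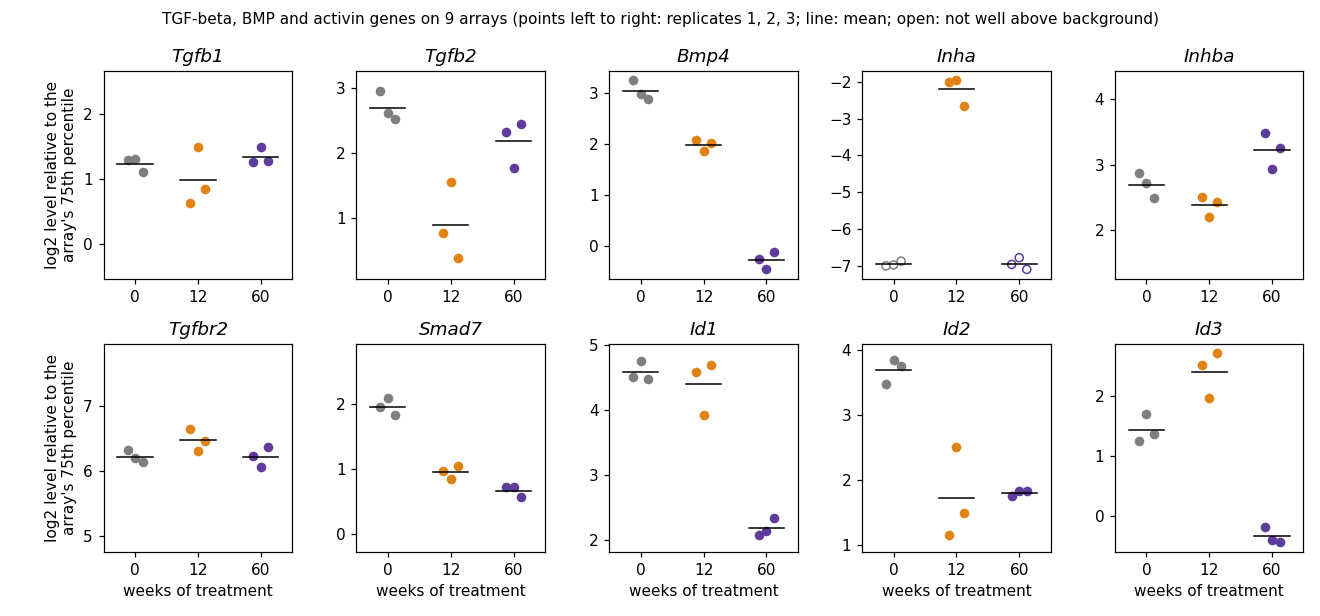
Level of each of the 10 genes on every array (points) at 0, 12 and 60 weeks, with the group mean (line); the vertical axis is the log2 signal relative to the 75th percentile of the array, and each panel has its own scale. Bmp4 and Smad7 were lower at both treated times than at 0 weeks, Id1 was low at 60 weeks and not at 12 weeks, and Inha was above background at 12 weeks and on no array of the other times.

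Replicates of 1 group agreed closely across genes, with correlations of 0.994 to 0.996 at 0 weeks and 0.990 to 0.994 at 60 weeks. At 12 weeks, replicates 1 and 3 correlated at 0.992, whereas replicate 2 correlated with them at 0.978 and 0.977. Over genes, the SD within a group had a median of 0.11 at 0 weeks, 0.21 at 12 weeks and 0.15 at 60 weeks. Results that change without replicate 2 of 12 weeks are therefore given both ways. Levels below are log2 signals relative to the 75th percentile of the array, so 0 is a probe as bright as that percentile, and levels of different genes are not compared.

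Bmp4 encodes a BMP ligand and had the largest fall among the 10 genes at 60 against 0 weeks. The 0 weeks arrays read 3.24, 2.98 and 2.88, the 12 weeks arrays 2.07, 1.86 and 2.02, and the 60 weeks arrays -0.26, -0.45 and -0.11. The 3 groups did not overlap, and each later time was lower than the one before. At 12 weeks Bmp4 averaged 1.98 ± 0.11, against 3.03 ± 0.19 at 0 weeks (SD, n = 3 each), a change of -1.05 ± 0.13 (SE, adjusted p = 0.00054). At 60 weeks it averaged -0.27 ± 0.17 (SD, n = 3), a change of -3.31 ± 0.13 against 0 weeks (adjusted p = 1.54e-06), which is 9.91-fold lower. The step at 60 weeks against 12 weeks was -2.26 ± 0.13 (adjusted p = 1.18e-05), or 4.78-fold lower. A second Bmp4 probe was well above background on 0 of 9 arrays, so it was not used.

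Inha encodes the inhibin alpha subunit, which pairs with an activin beta subunit to form inhibin, an antagonist of activin. At 12 weeks it was well above background on all 3 arrays, which read -2.0, -1.95 and -2.66, and at 0 and 60 weeks on none. It passed the filter on dim probes only through the 12 weeks arrays, so its difference there was a condition of being tested. Inha was at least 5.81-fold higher at 12 weeks than at 0 weeks (adjusted p = 1.02e-06), and at least 5.93-fold lower at 60 weeks than at 12 weeks (adjusted p = 1.42e-06). These bounds set the dim group, on each array, to the lowest signal called well above background there. No fold is given at 60 against 0 weeks, where both groups were at background.

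Inhba encodes the beta A subunit, which forms activin A as a homodimer. For Inhba the 0 weeks arrays read 2.87, 2.72 and 2.49, the 12 weeks arrays 2.5, 2.19 and 2.43, and the 60 weeks arrays 3.49, 2.94 and 3.25. All 60 weeks arrays lay above all arrays of the other times, and the 12 weeks and 0 weeks groups overlapped. At 60 weeks Inhba averaged 3.23 ± 0.28, against 2.37 ± 0.16 at 12 weeks (SD, n = 3 each), a rise of 0.85 ± 0.17 (SE, adjusted p = 0.00535) or 1.81-fold. Against the 2.69 ± 0.19 of 0 weeks (SD, n = 3) the change at 60 weeks was 0.53 ± 0.17 (adjusted p = 0.0393). That call ended in 9 of 25 alternatives, among them leaving out 0 weeks replicate 2 or 3, 12 weeks replicate 3 or 60 weeks replicate 1 or 3, with adjusted p up to 0.236. At 12 against 0 weeks the change was -0.32 ± 0.17 (adjusted p = 0.153).

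Of the TGF-beta ligands, Tgfb2 fell at 12 weeks and was higher again at 60 weeks. On the brighter of its 2 probes the 0 weeks arrays read 2.94, 2.61 and 2.52, the 12 weeks arrays 0.76, 1.54 and 0.38, and the 60 weeks arrays 2.31, 1.77 and 2.44. The 3 groups did not overlap, with 12 weeks lowest and 60 weeks between. At 12 weeks Tgfb2 averaged 0.89 ± 0.59, against 2.69 ± 0.22 at 0 weeks (SD, n = 3 each), a change of -1.80 ± 0.30 (SE, adjusted p = 0.00219) or 3.47-fold lower. At 60 weeks it averaged 2.17 ± 0.36 (SD, n = 3), which was 1.28 ± 0.30 above 12 weeks (adjusted p = 0.0117) or 2.43-fold higher, and -0.52 ± 0.30 against 0 weeks (adjusted p = 0.223). The dimmer probe moved alike, by -2.10 ± 0.25 at 12 against 0 weeks (adjusted p = 0.000423), by 1.46 ± 0.25 at 60 against 12 weeks (adjusted p = 0.00327) and by -0.64 ± 0.25 at 60 against 0 weeks (adjusted p = 0.0882).

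Tgfb1, the most widely expressed TGF-beta, passed no test. Its 0 weeks arrays read 1.28, 1.31 and 1.11, the 12 weeks arrays 0.63, 1.49 and 0.85, and the 60 weeks arrays 1.26, 1.49 and 1.28. The groups overlapped, with replicate 2 of 12 weeks near the top of the range, while the other 12 weeks arrays lay below all others. The change was -0.24 ± 0.20 at 12 against 0 weeks (SE, adjusted p = 0.365), 0.11 ± 0.20 at 60 against 0 weeks (adjusted p = 0.708) and 0.36 ± 0.20 at 60 against 12 weeks (adjusted p = 0.204). Without replicate 2 of 12 weeks the values were -0.49 at 12 against 0 weeks (adjusted p = 0.0111) and 0.60 at 60 against 12 weeks (adjusted p = 0.00478).

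Tgfbr2 encodes the type II receptor that binds TGF-beta, and its 2 probes gave different results. On the brighter probe the 0 weeks arrays read 6.33, 6.20 and 6.15, the 12 weeks arrays 6.66, 6.32 and 6.47, and the 60 weeks arrays 6.24, 6.06 and 6.37, and the groups overlapped in every comparison. Its change was 0.26 ± 0.12 at 12 against 0 weeks (SE, adjusted p = 0.129), 0.00 ± 0.12 at 60 against 0 weeks (adjusted p = 0.996) and -0.26 ± 0.12 at 60 against 12 weeks (adjusted p = 0.137). Without replicate 2 of 12 weeks, the first was 0.34 (adjusted p = 0.0462) and the last -0.34 (adjusted p = 0.0484). On the dimmer probe the 0 weeks arrays read 1.66, 2.01 and 1.69, the 12 weeks arrays 1.80, 2.34 and 1.5, and the 60 weeks arrays 2.84, 3.43 and 2.5. On that probe all 60 weeks arrays lay above the rest, by 1.14 ± 0.28 against 0 weeks (adjusted p = 0.0158) and 1.04 ± 0.28 against 12 weeks (adjusted p = 0.0198). No direction is therefore given for Tgfbr2 at 60 weeks.

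**Figure D2:**
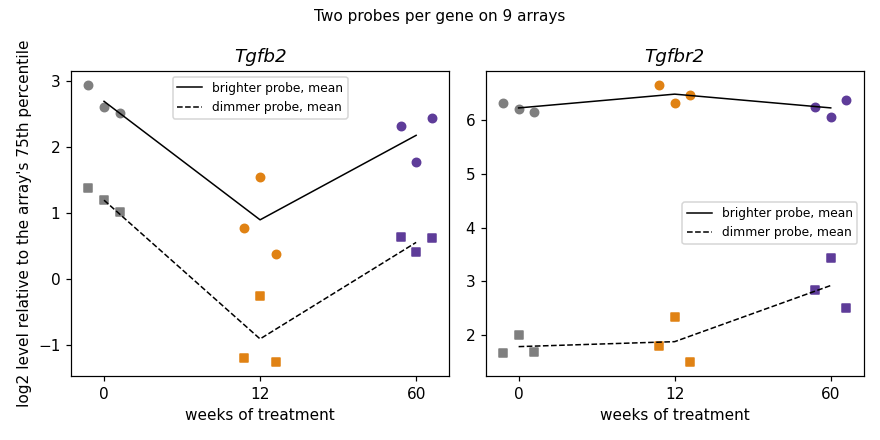
The 2 probes each of Tgfb2 and Tgfbr2 on every array at 0, 12 and 60 weeks (vertical axis: log2 signal relative to the 75th percentile of the array; points: arrays; lines: group means). The Tgfb2 probes shared the low values of 12 weeks, whereas the dimmer Tgfbr2 probe was high at 60 weeks and the brighter one was not.

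Smad7, the inhibitor that blocks activated TGF-beta receptors, fell at both treated times. For Smad7 the 0 weeks arrays read 1.95, 2.09 and 1.82, the 12 weeks arrays 0.97, 0.84 and 1.05, and the 60 weeks arrays 0.72, 0.72 and 0.56. The groups did not overlap in any comparison. At 12 weeks Smad7 averaged 0.95 ± 0.11, against 1.96 ± 0.13 at 0 weeks (SD, n = 3 each), a change of -1.0 ± 0.11 (SE, adjusted p = 0.000212). At 60 weeks it averaged 0.67 ± 0.09 (SD, n = 3), a change of -1.29 ± 0.11 against 0 weeks (adjusted p = 6.21e-05) or 2.44-fold lower. The step at 60 against 12 weeks was -0.29 ± 0.11 (adjusted p = 0.0636), and -0.34 without replicate 2 of 12 weeks (adjusted p = 0.0298).

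The Id genes encode helix-loop-helix proteins that lack a DNA-binding region and hold back differentiation factors by pairing with their partners. All 3 fell at 60 weeks against 0 weeks, and each had a different value at 12 weeks: Id1 did not pass the test, Id2 fell and Id3 rose. For Id1 the 0 weeks arrays read 4.51, 4.77 and 4.49, the 12 weeks arrays 4.58, 3.93 and 4.71, and the 60 weeks arrays 2.08, 2.14 and 2.35. The 60 weeks arrays lay below all others, and the 12 weeks and 0 weeks arrays overlapped. At 60 weeks Id1 averaged 2.19 ± 0.14, against 4.59 ± 0.16 at 0 weeks (SD, n = 3 each), a change of -2.39 ± 0.20 (SE, adjusted p = 6.52e-05) or 5.26-fold lower. Against the 4.41 ± 0.41 of 12 weeks (SD, n = 3) it was -2.22 ± 0.20 (adjusted p = 0.000127), while the change at 12 against 0 weeks was -0.18 ± 0.20 (adjusted p = 0.50).

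For Id2 the 0 weeks arrays read 3.47, 3.84 and 3.76, the 12 weeks arrays 1.15, 2.52 and 1.5, and the 60 weeks arrays 1.76, 1.84 and 1.83. Both treated groups lay below 0 weeks and overlapped each other, with replicate 2 of 12 weeks the highest treated array. At 12 weeks Id2 averaged 1.72 ± 0.71, against 3.69 ± 0.19 at 0 weeks (SD, n = 3 each), a change of -1.97 ± 0.30 (SE, adjusted p = 0.00148) or 3.91-fold lower. At 60 weeks it averaged 1.81 ± 0.04 (SD, n = 3), a change of -1.88 ± 0.30 against 0 weeks (adjusted p = 0.00219) or 3.68-fold lower. Id2 at 60 against 12 weeks was 0.09 ± 0.30 (adjusted p = 0.845), and 0.48 without replicate 2 of 12 weeks (adjusted p = 0.0271).

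For Id3 the 0 weeks arrays read 1.25, 1.69 and 1.37, the 12 weeks arrays 2.52, 1.96 and 2.71, and the 60 weeks arrays -0.18, -0.38 and -0.43. The groups did not overlap, with 12 weeks highest and 60 weeks lowest. At 12 weeks Id3 averaged 2.39 ± 0.39, against 1.44 ± 0.23 at 0 weeks (SD, n = 3 each), a rise of 0.96 ± 0.20 (SE, adjusted p = 0.00658) or 1.94-fold. At 60 weeks it averaged -0.33 ± 0.14 (SD, n = 3), a change of -1.77 ± 0.20 against 0 weeks (adjusted p = 0.000384) or 3.41-fold lower. At 60 against 12 weeks Id3 was -2.72 ± 0.20 (adjusted p = 4.23e-05), or 6.61-fold lower.

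**Figure D3:**
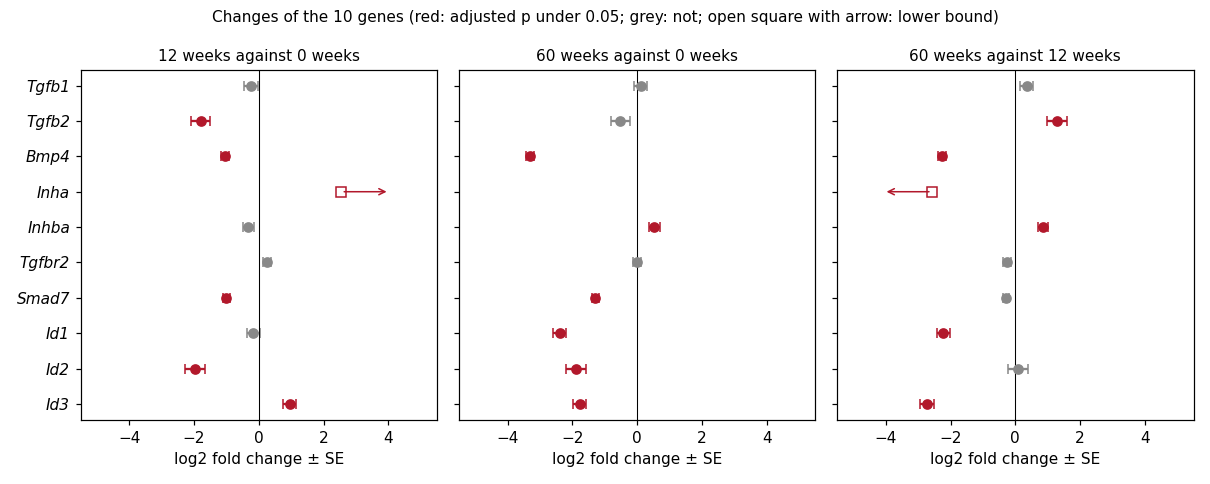
Log2 fold change with its SE for the 10 genes in each comparison (columns); red points passed limma's test at an adjusted p under 0.05, grey points did not, and an open square with an arrow is a lower bound. Bmp4 at 60 against 0 weeks, at -3.31, was the largest fall with both groups measured, and the Inha bounds point up at 12 weeks and down at 60 against 12 weeks.

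Arrays lay in rows of 2 slides, and the rows did not hold the groups evenly. Row 1 of slide 1 held all 0 weeks arrays and 1 array of 12 weeks, row 2 held the other 12 weeks arrays and 2 of 60 weeks, and 1 array of 60 weeks lay on slide 2. Within row 1, with 1 array of 12 weeks and 3 of 0 weeks, the 6 genes called at 12 against 0 weeks kept their sign, at 0.917 to 1.29 times the pooled log2 change. Within row 2, with 2 arrays each, the 6 genes called at 60 against 12 weeks kept theirs, at 0.845 to 1.06 times the pooled change. In both comparisons the groups of the called genes did not overlap, so the sign could not turn within a row. The arrays of each row are also part of the pooled fit, so these values are no separate check. No row held both 60 and 0 weeks arrays. With slide row as a block, the calls of Id3 (-1.53, adjusted p = 0.0720) and Inhba (0.71, adjusted p = 0.236) at 60 against 0 weeks and of Tgfb2 (1.08, adjusted p = 0.0950) at 60 against 12 weeks ended.

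Id3, Id2 and Bmp4 lie on chromosomes 4, 12 and 14, whose other genes were shifted upward at both treated times. The median log2 change of the other tested genes at 12 against 0 weeks was 0.26 on the chromosome of Id3, 0.23 on that of Id2 and 0.21 on that of Bmp4, and at 60 against 0 weeks it was 0.21, 0.22 and 0.13. The part of this shift in the level of these genes was not tested. With each gene centred on the genes of its own chromosome, the rise of Id3 at 12 weeks was 0.61 (adjusted p = 0.0452), and its fall at 60 against 0 weeks was -1.97 (adjusted p = 0.000241). Centred in the same way, Bmp4 was -1.37 at 12 weeks (adjusted p = 0.000117) and -3.45 at 60 weeks (adjusted p = 1.06e-06), each against 0 weeks. Id2 was -2.27 at 12 weeks (adjusted p = 0.000744) and -2.03 at 60 weeks (adjusted p = 0.0017).

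The organoids carried the epithelial identity their label gives. All 12 listed epithelial markers were well above background, with a summed linear signal, in units of the 75th percentile, of 2208 to 2655 at 0 weeks, 2354 to 2520 at 12 weeks and 2281 to 2549 at 60 weeks. Of 13 fibroblast and smooth muscle markers 4 were tested, and their summed signal was 0.235 to 0.326 at 0 weeks, 0.303 to 0.433 at 12 weeks and 0.236 to 0.279 at 60 weeks. Of this list, Pdgfra, Pdgfrb, Dcn, Lum, Thy1, Myh11 and Des were well above background on no array. Col1a2, by contrast, was well above background on 9 of 9 arrays and Acta2 on 8 of 9. Vim, which encodes the intermediate filament vimentin, moved with Inha: it was well above background on all 3 arrays at 12 weeks and on none at 60 or 0 weeks, at least 4.73-fold higher at 12 than at 0 weeks (adjusted p = 7.89e-06). Like Inha, it was tested only because of its 12 weeks arrays. Col1a1, which encodes a collagen chain and is on the same list, went the other way: it was well above background on no array at 12 weeks and on all 3 at 60 and at 0 weeks, at least 3.15-fold lower at 12 than at 0 weeks (adjusted p = 0.000767). The part of Vim-expressing cells in the Inha result was not tested. Of 12 leukocyte markers 6 were tested, with sums of 36.1 to 42.6 at 0 weeks, 53.7 to 72.0 at 12 weeks and 55.2 to 63.7 at 60 weeks, and Ptprc, the pan-leukocyte marker, was above background on none. Of 6 endothelial markers 3 were tested. Their sums were 8.61 to 10.9 at 0 weeks, 6.89 to 8.97 at 12 weeks and 8.71 to 11.5 at 60 weeks. Pecam1 and Kdr were well above background on 9 of 9 arrays, and Vwf averaged -4.50 at 0 weeks and -1.68 at 60 weeks. Of 6 neural and glial markers 3 were tested, with sums of 0.967 to 1.01, 0.655 to 0.798 and 0.575 to 0.905 at these times.

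Beyond these 10 genes, 116 other genes of the pathway were listed by role, and 77 of them were tested. At 12 against 0 weeks 16 rose and 16 fell (41.6% of the 77, beside 41.8% of all tested genes). At 60 against 0 weeks 12 rose and 13 fell (32.5%, beside 32.8%). At 60 against 12 weeks 17 rose and 18 fell (45.5%, beside 38.3%). The median log2 changes of the 77 genes were -0.04, -0.01 and -0.04. Some of these genes stand under more than 1 role.

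Among 16 other ligands, 4 rose and 2 fell at 12 weeks, and 4 rose and 4 fell at 60 weeks, each against 0 weeks. At 60 against 12 weeks 3 rose and 3 fell. Bmp2, a ligand close to Bmp4, was at 60 weeks -2.87 ± 0.21 against 0 weeks (SE, adjusted p = 2.96e-05) and -2.93 ± 0.21 against 12 weeks (adjusted p = 3.1e-05), with 0.06 ± 0.21 at 12 against 0 weeks (adjusted p = 0.827). Bmp3, an atypical BMP that can oppose the others, rose by 2.86 ± 0.16 at 12 weeks (adjusted p = 6.78e-06) and by 3.40 ± 0.16 at 60 weeks (adjusted p = 3.61e-06), each against 0 weeks. Bmp7 changed by -2.93 ± 0.29 at 12 weeks (adjusted p = 0.000144) and by -1.43 ± 0.29 at 60 weeks (adjusted p = 0.00684). Bmp8a rose by 1.58 ± 0.15 at 12 weeks (adjusted p = 0.000126) and by 1.12 ± 0.15 at 60 weeks (adjusted p = 0.000991). Tgfb3, the third TGF-beta, rose by 1.74 ± 0.21 at 12 weeks (adjusted p = 0.00046), and its call at 60 against 0 weeks, 0.67 ± 0.21 (adjusted p = 0.0430), ended in 14 of 25 alternatives. With slide row as a block, the 60 against 0 weeks calls of Bmp7 (adjusted p = 0.0691) and Bmp8a (adjusted p = 0.0719) ended.

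Among 11 other receptors and co-receptors, 2 rose and 0 fell at 12 against 0 weeks, 2 rose and 1 fell at 60 against 0 weeks, and 1 rose and 2 fell at 60 against 12 weeks. Acvr1b, a type I activin receptor, rose by 0.76 ± 0.14 at 12 weeks (SE, adjusted p = 0.00349). Acvr2b, a type II activin receptor, was 0.72 ± 0.12 higher at 60 weeks than at 12 weeks (adjusted p = 0.00272). Amhr2, the type II receptor of anti-Muellerian hormone, was not well above background at 60 weeks, where it was at least 2.44-fold lower than at 0 weeks (adjusted p = 0.00323). That call ended with slide row as a block (adjusted p = 0.226).

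Of 5 Smads that carry the signal, 0 rose and 2 fell at 12 against 0 weeks, none passed at 60 against 0 weeks, and 1 rose and 1 fell at 60 against 12 weeks. Without replicate 2 of 12 weeks, Smad2 also passed at 12 against 0 weeks (0.35, adjusted p = 0.0103) and at 60 against 0 weeks (-0.25, adjusted p = 0.0317). Smad1 and Smad4 passed in no comparison. Smad3 was 0.53 ± 0.13 higher at 60 than at 12 weeks (SE, adjusted p = 0.0115), and Smad2 was -0.49 ± 0.11 in the same comparison (adjusted p = 0.0105). With slide row as a block both calls ended, Smad3 at an adjusted p of 0.060 and Smad2 at 0.0596. The call of Smad3 at 12 against 0 weeks, -0.47 ± 0.13 (adjusted p = 0.0179), ended in 6 of 25 alternatives, without 0 weeks replicate 1 or 2 and without 12 weeks replicate 3 among them. Smad5 at 12 against 0 weeks was -0.44 ± 0.10 (adjusted p = 0.00844) on its brighter probe and 0.47 on the second (adjusted p = 0.105). The call on the brighter probe ended with slide row as a block (-0.40, adjusted p = 0.0817).

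Among 11 inhibitors inside the cell, 1 rose and 2 fell at 12 against 0 weeks, 1 rose and 1 fell at 60 against 0 weeks, and 5 rose and 2 fell at 60 against 12 weeks. Smad6, the inhibitory Smad that acts mainly on BMP signals, averaged -0.28 ± 0.05 at 0 weeks, -5.09 ± 0.89 at 12 weeks and -2.40 ± 0.13 at 60 weeks (SD, n = 3 each). The change of Smad6 was -4.81 ± 0.37 at 12 against 0 weeks (SE, adjusted p = 3.58e-05), with 2 of 3 arrays at 12 weeks well above background. Replicate 2 of 12 weeks, at -6.11, was not, so the fitted change reads background there. Without that array it was -4.29 (adjusted p = 6.23e-07). At 60 weeks it was -2.12 ± 0.37 against 0 weeks (adjusted p = 0.00323, and 0.240 with the row as a block) and 2.69 ± 0.37 against 12 weeks (adjusted p = 0.00112), or 2.18 against 12 weeks without that array (adjusted p = 1.05e-05). Trim33, a ligase that limits Smad4, was -1.06 ± 0.19 at 12 against 0 weeks (adjusted p = 0.00333) and 1.10 ± 0.19 at 60 against 12 weeks (adjusted p = 0.00342). Ppm1a, a phosphatase of Smads, rose by 0.64 ± 0.13 at 12 weeks (adjusted p = 0.00586), a call that ended when it was centred on its chromosome (adjusted p = 0.0813).

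Among 8 secreted antagonists, 2 rose and 2 fell at 12 against 0 weeks, 1 rose and 2 fell at 60 against 0 weeks, and 1 rose and 2 fell at 60 against 12 weeks. Fstl3, a follistatin-like protein that binds activin, was -2.54 ± 0.38 at 12 against 0 weeks (SE, adjusted p = 0.00127) and 1.67 ± 0.38 at 60 against 12 weeks (adjusted p = 0.0105). Bmper, which binds BMPs outside the cell, was 4.11 ± 0.48 at 12 against 0 weeks (adjusted p = 0.000359) and -3.25 ± 0.48 at 60 against 12 weeks (adjusted p = 0.00159). Dand5, an antagonist of nodal and BMPs, was -0.86 ± 0.14 at 60 against 0 weeks (adjusted p = 0.00221, and 0.216 with the row as a block).

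Of 11 genes of TGF-beta latency and activation, 4 rose and 2 fell at 12 against 0 weeks, 3 rose and 2 fell at 60 against 0 weeks, and 3 rose and 4 fell at 60 against 12 weeks. Ltbp4, which holds latent TGF-beta in the matrix, was -1.01 ± 0.12 at 12 against 0 weeks (SE, adjusted p = 0.000381) and 0.99 ± 0.12 at 60 against 12 weeks (adjusted p = 0.000608). Thbs1, thrombospondin, an activator of latent TGF-beta, fell at both times, with changes of -1.62 ± 0.17 at 12 weeks (adjusted p = 0.000181) and -1.30 ± 0.17 at 60 weeks (adjusted p = 0.000725), each against 0 weeks. Itgb6, the beta subunit of an epithelial integrin that activates latent TGF-beta, rose by 1.0 ± 0.12 at 12 weeks (adjusted p = 0.000478).

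Of 17 TGF-beta target genes, 5 rose and 4 fell at 12 against 0 weeks, 2 rose and 2 fell at 60 against 0 weeks, and 4 rose and 6 fell at 60 against 12 weeks. Cdkn2b, the cell-cycle inhibitor p15, was well above background at 12 weeks only, at least 185-fold higher than at 0 weeks (adjusted p = 3.15e-09) and, at 60 weeks, at least 189-fold lower than at 12 weeks (adjusted p = 1.02e-09). It passed the filter on dim probes only through its 12 weeks arrays, so this difference was a condition of being tested. Ccn2, connective tissue growth factor, was -1.55 ± 0.14 at 12 against 0 weeks (SE, adjusted p = 8.52e-05) and 1.33 ± 0.14 at 60 against 12 weeks (adjusted p = 0.000302). Of 6 BMP target genes other than Id1, Id2 and Id3, 1 rose and 3 fell at 12 against 0 weeks, 0 rose and 2 fell at 60 against 0 weeks, and 2 rose and 2 fell at 60 against 12 weeks. Smad6 and Bmper, given above, are on that list too. Gata3, a transcription factor on it, was -0.81 ± 0.17 at 12 against 0 weeks (adjusted p = 0.00687) and 1.20 ± 0.17 at 60 against 12 weeks (adjusted p = 0.00144).

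The genes whose levels ran most like those of the 3 genes with the smallest p-values among these 10 were found by Pearson correlation over the 9 arrays, given as a description only, since the arrays share 3 groups. For Inha these were Golm2 (r = 0.999), Amer2 (r = 0.999) and St8sia6 (r = 0.998), and 182 genes had r over 0.95. For Bmp4 they were Cops3 (r = 0.996), Ptgds (r = 0.994) and Ccnd2 (r = 0.994), among 148 genes with r over 0.95. For Id3 they were Bche (r = 0.991), Sh3d21 (r = 0.988) and Sult1b1 (r = 0.985), among 84.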

How the data were processed

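RNA of the 9 samples was labelled with Cy3, per the labels' protocols, and the authors' scans were quantified in Agilent Feature Extraction, version 10.7.3.1, per the file headers. The deposited scanner files give an intensity per spot, background-subtracted and on a linear scale, and the scanner's quality calls per spot. The deposited value table gives a signal for 42530 of 55681 non-control probes. It held 8 of the 10 genes, lacking Tgfb2 and Bmp4, and served as an alternative. All columns were matched to a sample (0 left over).

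Spots flagged as outliers (117 to 163 of 59305 per array) were left out. The mean over the spots of a probe was put on the log2 scale relative to the 75th percentile of its array. No spot was saturated (0). Probes well above background on at least 2 of 3 arrays of at least 1 group were kept (49.2% to 52.7% of probes were above background per array). Names came from RefSeq accessions on GRCm38.p6, giving 1 symbol to 27235 probes, several to 0 and none to 28446. A gene was read from its probe with the highest mean. Groups were fitted over 9 arrays with limma 3.58.1 in R 4.3.3, tested two-sided, with Benjamini-Hochberg adjustment over 14034 genes at 0.05. The fit was tested on simulated data. Precision is limited by 3 arrays per group.

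The genes, the lists and the tests were chosen with earlier results of these data known. Pathway genes named in the text are, for each role, up to 3 called genes with the smallest adjusted p, plus genes of the same family as one of the 10; 1 gene so chosen is not reported here. Genes running like the 3 with the largest F were ranked by correlation, leaving out the pathway lists. Alternatives varied background correction (normexp, offset 50, on median spot and background intensity, since the files hold no mean spot signal), scaling, filter, probe choice, arrays fitted, weights and slide blocks. Replicate numbers were not taken to pair samples. Deviations of same-numbered arrays correlated at -0.08 to 0.20, those of other arrays at -0.24 to 0.16. With 3 arrays per group these correlations cannot exclude a pairing.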

Additional observations from a re-analysis of the deposited data

Results flagged for a closer look

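For 6 of the 10 genes the change at 60 weeks differed from the change at 12 weeks, beside 38.3% of all tested genes. Inha, among the 6, was tested only through its 12 weeks arrays, and the call of Tgfb2 ended with slide row as a block. Both changes are against the same 0 weeks arrays, so this difference equals the comparison of 60 with 12 weeks and was tested by it. The change at 60 weeks minus the change at 12 weeks, on the log2 scale, was 1.28 for Tgfb2, -2.22 for Id1, -2.72 for Id3, -2.26 for Bmp4 and 0.85 for Inhba. For Inha the fitted difference was -4.75, a value that reads the background of the 60 weeks arrays and is no measured fold.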

How the results depend on the processing

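Over all 14034 tested genes, the called number at 60 against 0 weeks was 4600, and 7605 with array quality weights or 1392 with slide row as a block; at 60 against 12 weeks it was 5378, and 3468 with the row block. Pathway genes outside the 10 numbered 25 called at 60 against 0 weeks, and 46 with weights or 5 with the row block; at 60 against 12 weeks they numbered 35, and 22 with the row block. Leaving out 1 array at a time gave 4228 to 7405, 3195 to 6022 and 3624 to 7072 genes (12 against 0, 60 against 0 and 60 against 12 weeks), 6235 to 9562 by the F test, 6 to 8, 5 to 6 and 6 to 10 of the 10 genes, and 25 to 43, 19 to 37 and 26 to 43 pathway genes. The highest count for the 10 genes, 10 at 60 against 12 weeks, came without replicate 2 of 12 weeks. Values turned sign with the probe: Smad5 at 12 against 0 weeks was 0.47 on its second probe and 0.0118 as the mean of probes, Bmp1 there was -0.17, and at 60 against 12 weeks Tgfbr2 was 1.04 and 0.39 and Itgb6 0.0866 on the second probe. The cause was not tested. Of 741 alternative values of the 10 genes, 694 kept sign and side of the threshold, 16 newly passed and 11 no longer passed. The sign turned in 2 values called in at least 1 fit, both of Tgfbr2, and in 18 called in neither. The deposited table called 4, 5 and 4 of 8 genes in the 3 comparisons, beside 40.8%, 31.8% and 36.6% of its 12195 tested genes. With a replicate block, 5795, 4453 and 5246 genes and 6, 6 and 6 of the 10 were called. A group at background on all its arrays gives only a bound, and 3 arrays per group limit the precision.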
